A study of Mus musculus with 24 samples.

Results

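The 9 genes described here are regulators and surface markers of primordial germ cells: Prdm1, Prdm14, Tfap2c, Dppa3, Dnd1, Nanos3, Kit, Ifitm1 and Ifitm3. They were picked by name out of the 54242 gene symbols of the expression table. All 9 were listed, and all 9 were among the 16447 genes tested, which had a mean of at least 0.5 on the log2(TPM + 1) scale over all libraries. The data come from RNA-seq of CGR8, a mouse embryonic stem cell (ESC) line, with 24 libraries and 3 in each of 8 groups. ESC groups were kept in serum with LIF by the study's methods. DIF groups were transfected and then reseeded in 10 nM retinoic acid (RA) for 4 days. Cells of the siControl groups received a pool of non-targeting siRNAs, and cells of the siRSL24D1 groups a pool against Rsl24d1, which encodes a factor that matures the large ribosomal subunit. RESCUE groups expressed an RSL24D1 transgene induced by doxycycline, and nores groups did not. The labels give an empty vector for nores cells, so the transgene, doxycycline and the vector cannot be told apart in a comparison of RESCUE with nores. The sources disagree on the medium and on whether LIF was kept during RA treatment. They also disagree on whether ESCs were collected 48 h or 72 h after transfection. All groups share 1 cell line, the triplicates are called independent in the series text, and no sort for germ cells is described.

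Primordial germ cells are the embryonic precursors of eggs and sperm. In the mouse embryo, BMP signals from neighbouring tissue induce Prdm1, Prdm14 and Tfap2c in a few epiblast cells, and these transcription factors shut off somatic genes and switch the pluripotency network back on. Dppa3 (also called Stella) and the interferon-induced membrane proteins Ifitm1 and Ifitm3 mark the newly specified cells, Dnd1 and Nanos3 are RNA-binding proteins that keep them alive, and the receptor tyrosine kinase Kit guides their survival and migration. Cultured mouse ESCs also transcribe many of these genes, Prdm14, Tfap2c and Dppa3 among them. In a bulk library, fewer cells expressing a gene and less RNA of that gene per cell cannot be told apart.

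The targeted gene was read first. In ESC nores cells Rsl24d1 was at 148, 140 and 136 TPM in the siControl libraries and at 36.6, 37.9 and 32.7 TPM in the siRSL24D1 libraries, with no overlap. In DIF nores cells it was at 95.9, 101 and 96.7 TPM in the siControl libraries and at 89.3, 96.3 and 99.8 TPM in the libraries labelled siRSL24D1, a difference of -0.04 on the log2 scale with a 95% interval from -0.19 to 0.11. The siRNA label of the DIF nores libraries was therefore not visible in the target at the time of collection, and every siRNA comparison in DIF below rests on the label alone. The 8 pluripotency markers summed to between 2620 and 2670 TPM in the ESC siControl nores libraries, with every marker at a mean of at least 1 TPM in every group. Between 23415 and 26428 genes were above 0 per library, mitochondrial genes took 6.42% to 9.36% of the TPM, and the correlation between libraries of a group was at least 0.9847. TPM keeps no read totals, so the depth is unknown and precision rests on the 3 libraries per group.

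Of the 9 members, 5 (Prdm1, Nanos3, Kit, Ifitm1 and Ifitm3) have a promoter in the RefSeq-based table of build GRCm38.p6, which holds 250 bases before and 50 after each start. The members lie on chromosomes 1, 2, 5, 6, 7, 8, 10 and 18, and only Ifitm1 (plus strand) and Ifitm3 (minus strand) are neighbours, 39760 bases apart on chromosome 7. Printed here are the windows of Ifitm1 and Ifitm3, because these neighbours went in opposite directions with the siRNA in ESCs, and of Kit, because these 3 genes were called higher with RA. Capitals mark matches to 6 motifs searched on both strands: the interferon-stimulated response element GAAANNGAAA, the STAT site TTCNNNGAA, the RA receptor core site AGGTCA, the E-box CACGTG, the GC box GGGCGG and the octamer ATGCAAAT.
Ifitm1 promoter (chr7:140967826-140968125, plus strand): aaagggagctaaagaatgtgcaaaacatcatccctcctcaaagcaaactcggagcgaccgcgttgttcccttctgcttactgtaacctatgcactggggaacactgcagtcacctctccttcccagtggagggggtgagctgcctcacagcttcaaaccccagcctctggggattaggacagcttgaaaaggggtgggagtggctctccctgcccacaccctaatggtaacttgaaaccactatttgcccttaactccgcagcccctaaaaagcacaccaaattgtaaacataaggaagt
Ifitm3 promoter (chr7:141010695-141010994, minus strand): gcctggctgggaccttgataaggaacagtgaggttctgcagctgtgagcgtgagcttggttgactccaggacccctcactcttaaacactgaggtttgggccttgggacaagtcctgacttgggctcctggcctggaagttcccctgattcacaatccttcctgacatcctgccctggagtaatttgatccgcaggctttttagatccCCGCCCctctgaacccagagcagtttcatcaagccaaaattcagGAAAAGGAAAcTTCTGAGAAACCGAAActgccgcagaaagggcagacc
Kit promoter (chr5:75574737-75575036, plus strand): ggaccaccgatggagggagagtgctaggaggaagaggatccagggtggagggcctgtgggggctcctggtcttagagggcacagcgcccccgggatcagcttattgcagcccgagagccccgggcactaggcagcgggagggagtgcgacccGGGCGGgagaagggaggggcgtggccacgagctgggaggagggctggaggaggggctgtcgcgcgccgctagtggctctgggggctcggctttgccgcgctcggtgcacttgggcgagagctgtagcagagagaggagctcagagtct
The Ifitm1 window held no match to any of the 6 motifs and lies inside the gene as the GENCODE annotation draws it (140967221 to 140969825). The Ifitm3 window held 2 interferon-stimulated response elements, from bases 3 and 20 after the start, a STAT site from base 14 that overlaps the second of them, and a GC box. The Kit window held 1 GC box. Of 32851 promoters in the table, 3.44% hold the interferon-stimulated response element, 8.3% the STAT site, 16.3% the RA receptor core site, 7.15% the E-box, 35.7% the GC box and 1.74% the octamer. No RA receptor core site, E-box or octamer was matched in any of the windows of the 5 members. These matches describe letters in the windows and not bound sites.

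**Figure D1:**
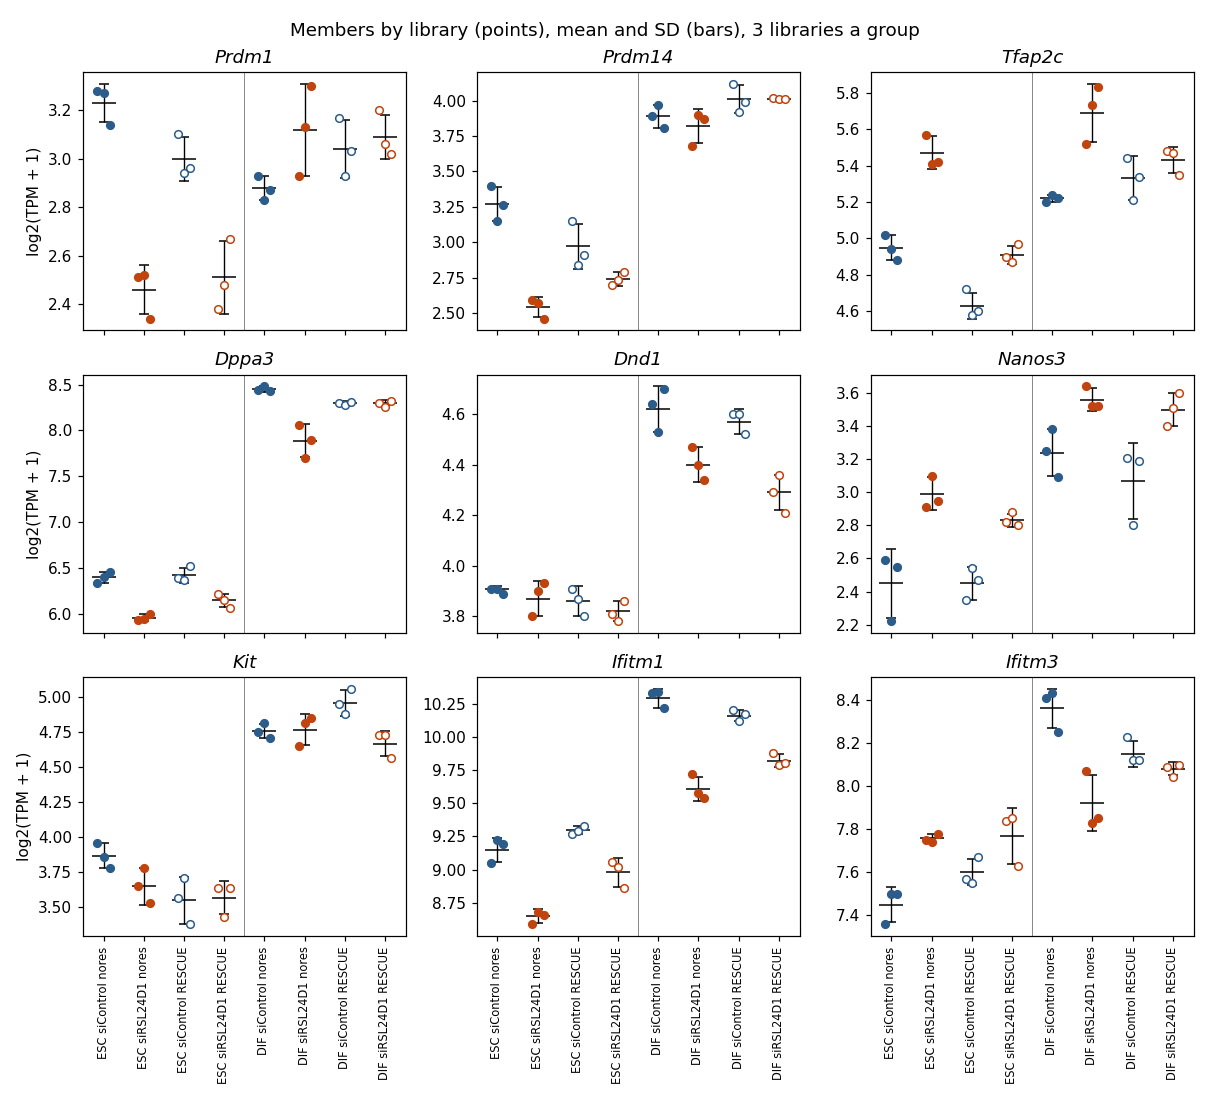
Level of each member on the log2(TPM + 1) scale (vertical axes, each with its own range) in the 24 libraries, by group (horizontal axis). Points are libraries, bars the mean and SD of 3 libraries, filled points nores, open points RESCUE, blue siControl and orange siRSL24D1. The points of Prdm14, Dppa3, Dnd1, Nanos3, Kit, Ifitm1 and Ifitm3 lie higher in DIF (right of the grey line) than in ESC of the same arm, in every arm.

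In control ESCs (siControl nores) the members spanned a wide range of levels per length. Ifitm1 was at 529, 594 and 585 TPM, and Ifitm3 at 163, 181 and 180 TPM. Dppa3 followed at a mean of 83.6 ± 3.4 TPM (SD, n = 3) and Tfap2c at 29.8 ± 1.5 TPM. Ifitm1 and Ifitm3 therefore stood above every transcription factor of the set, whereas the surface receptor Kit stood below Tfap2c. Dnd1, with 14.0 ± 0.11 TPM, and Kit, with 13.6 ± 0.92 TPM, overlapped between libraries, as did Prdm14, with 8.66 ± 0.82 TPM, and Prdm1, with 8.42 ± 0.5 TPM. Nanos3 was lowest, at 5.03, 3.65 and 4.84 TPM. Values this low are compressed by the added 1, so that log2 differences of Nanos3, Prdm1 and Prdm14 understate their change. Near-identical copies were looked for among annotated transcripts (at least 90% identity over 200 bases): Dnd1-ps and Gm47576 were listed at 0 in every library, and Dppa3-ps, Gm7676 and Gm6885, which resemble Dppa3, Ifitm1 and Ifitm3, reached at most 0.253, 0.981 and 0.161 TPM in any library.

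The comparison of DIF with ESC asks how the members differed after RA treatment. RA, reseeding, time in culture and any change of LIF cannot be told apart in it, and "with RA" below stands for all of these. In the text, a gene is said to have risen or fallen where its limma p-value, Benjamini-Hochberg adjusted over all 16447 genes, was under 0.01, and is called where it also changed by over 1.8-fold (0.848 on the log2 scale). In siControl nores cells 8 of 9 members rose, against 24.1% of all genes tested, and 4 were called higher, Dppa3, Ifitm1, Ifitm3 and Kit, against 6.77% of all genes. The remaining member, Prdm1, fell, as did 36.7% of all genes. In siControl RESCUE cells 8 rose (36.8% of all genes) and 4 were called higher (10.7%). In siRSL24D1 nores cells 8 rose (29.4%) and 4 were called higher (7.93%), and in siRSL24D1 RESCUE cells all 9 rose (32.4%) and 3 were called higher (9.34%). The 4 comparisons use different libraries. In the same order of arms, the DIF and ESC libraries did not overlap for 72.5%, 71.5%, 66.3% and 70.2% of all genes, in either direction. The median difference of all genes was -0.10 in siControl nores and 0.12 in siControl RESCUE cells. In siControl nores cells 1114 genes were called higher and 1355 lower, which became 1404 (8.54%) and 953 with median-of-ratios scaling. In siControl RESCUE cells 1767 higher and 792 lower became 1380 (8.39%) and 1046. With that scaling 6 members were called higher in siControl nores cells, Dnd1 and Nanos3 in addition, and 5 with 0.1 added to the TPM, Nanos3 in addition. The members called in both arms lay above these medians, and with that scaling Dppa3 rose by 2.19 and 1.73, Kit by 1.03 and 1.28, and Ifitm1 by 1.28 and 0.72, the last under the fold threshold.

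Dppa3, a maternal factor that shields methylated DNA from demethylation, showed the largest change among the members in every arm. It was at 80.1, 83.6 and 87.0 TPM in ESC siControl nores and at 346, 356 and 343 TPM in DIF siControl nores libraries. The DIF libraries held 4.16 times the ESC mean, with no overlap, and the log2 difference was 2.05 ± 0.06 (SE; adjusted p = 9.1e-16, limma). The same difference was 1.87 in siControl RESCUE, 1.93 in siRSL24D1 nores and 2.15 in siRSL24D1 RESCUE cells. Nanog lies 77216 bases downstream of Dppa3 on chromosome 6 and encodes a core pluripotency factor. It rose from a mean of 184 to 319 TPM in siControl nores cells, by 0.79 on the log2 scale (adjusted p = 5.2e-13, limma), short of 1.8-fold.

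Ifitm1 and Ifitm3 encode small membrane proteins that restrict virus entry and are classical surface markers of early germ cells. Ifitm1 was at 1290, 1290 and 1190 TPM in DIF siControl nores libraries, all above the ESC libraries given before, and rose by 1.14 ± 0.06 on the log2 scale (adjusted p = 9.1e-13, limma). Ifitm3 was at 339, 343 and 304 TPM there, also above every ESC library, and rose by 0.91 ± 0.07 (adjusted p = 3.4e-10, limma). Ifitm1 rose by 0.86 in siControl RESCUE, 0.97 in siRSL24D1 nores and 0.84 in siRSL24D1 RESCUE cells, the last just under the fold threshold. Ifitm3 rose by 0.56 in siControl RESCUE and 0.30 in siRSL24D1 RESCUE cells, and its difference in siRSL24D1 nores cells was 0.16 with a 95% interval from 0.02 to 0.30 (adjusted p = 0.043, limma). There the libraries still did not overlap, with 214, 213 and 219 TPM in ESC and 267, 227 and 230 TPM in DIF. With median-of-ratios scaling the Ifitm3 difference in siRSL24D1 RESCUE cells was 0.23 and no longer passed (adjusted p = 0.043, limma).

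Kit was at 14.6, 13.6 and 12.8 TPM in ESC siControl nores and at 26.0, 27.3 and 25.3 TPM in DIF siControl nores libraries, a ratio of means of 1.93. It was called higher in every arm, by 0.89 ± 0.09 in siControl nores, 1.41 in siControl RESCUE and 1.10 in siRSL24D1 RESCUE cells, and in siRSL24D1 nores cells the DIF mean was 2.28 times the ESC mean. Its ligand Kitl, in the list of germ cell induction signals, went from a mean of 2.52 to 4.61 TPM in siControl nores cells, a rise of 0.67 (adjusted p = 6.8e-06, limma). Kit also marks mast cells and melanocytes, so markers of both were read beside it. The 6 blood and mast cell markers summed to at most 5.41 TPM in any library, with Cpa3 at 0 in every library of 7 groups, and the 4 melanocyte markers summed to between 23.2 and 26.3 TPM in ESC siControl nores but 5.7 to 6.13 TPM in DIF siControl nores libraries. The blood and mast cell sums of the ESC and DIF siControl nores libraries overlapped, at 2.88 to 3.09 and 2.69 to 3.88 TPM.

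The 3 transcription factors that specify germ cells did not move together with RA in siControl nores cells. Prdm14, a repressor of epiblast genes, was at 9.53, 7.9 and 8.56 TPM in ESC siControl nores and at 13.9, 14.7 and 13.0 TPM in DIF siControl nores libraries, a rise of 0.62 ± 0.08 on the log2 scale (adjusted p = 1.2e-06, limma). It was called higher in the other 3 arms, by 1.04 in siControl RESCUE, 1.27 in siRSL24D1 nores and 1.27 in siRSL24D1 RESCUE cells. Tfap2c, which acts downstream of Prdm1, rose by 0.28 in siControl nores, 0.69 in siControl RESCUE, 0.22 in siRSL24D1 nores and 0.52 in siRSL24D1 RESCUE cells and was called in none. Without ESC replicate 3 its rise in siControl nores cells missed the threshold (0.24, adjusted p = 0.011, limma). Its rise in siRSL24D1 nores cells had overlapping libraries and an adjusted p of 0.0088 (limma), and it was lost under several other settings, with an adjusted p of 0.07 without DIF replicate 3.

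Prdm1 encodes BLIMP1, the repressor of the somatic programme, and changed in both directions. It was at 8.75, 8.67 and 7.85 TPM in ESC siControl nores and at 6.62, 6.1 and 6.33 TPM in DIF siControl nores libraries, with every DIF library below every ESC library. The log2 difference was -0.36 ± 0.09 (adjusted p = 0.0021, limma), and -0.23 with median-of-ratios scaling. Leaving out ESC replicate 1 or DIF replicate 2 moved the adjusted p to 0.01. In siControl RESCUE cells the difference was 0.04 with a 95% interval from -0.15 to 0.24. In the siRNA arms the sign was opposite: Prdm1 rose by 0.67 in siRSL24D1 nores and 0.58 in siRSL24D1 RESCUE cells, where the ESC libraries held only 4.07 to 5.36 TPM.

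The RNA-binding members rose in every arm and on the log2(TPM + 1) scale stayed under the fold threshold. Dnd1, which protects germ cell transcripts from microRNAs, was at 14.0, 14.1 and 13.9 TPM in ESC siControl nores and at 23.9, 22.1 and 25 TPM in DIF siControl nores libraries, a rise of 0.72 ± 0.05 (adjusted p = 3.4e-10, limma). It rose by 0.71, 0.53 and 0.47 in siControl RESCUE, siRSL24D1 nores and siRSL24D1 RESCUE cells. Nanos3, a translational repressor, was at 8.5, 9.39 and 7.51 TPM in DIF siControl nores libraries, above the 3.65 to 5.03 TPM of ESCs, and rose by 0.79 ± 0.11 (adjusted p = 2.8e-06, limma). Its rise in the other arms lay between 0.57 and 0.67. As a ratio of mean TPM, DIF against ESC in siControl nores cells, Nanos3 reached 1.88 and Dnd1 1.69. In siControl nores cells Nanos3 was past the fold threshold with 0.1 added to the TPM (0.90), without ESC replicate 1 or DIF replicate 3, and with median-of-ratios scaling (0.91), as was Dnd1 with that scaling (0.85).

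**Figure D2:**
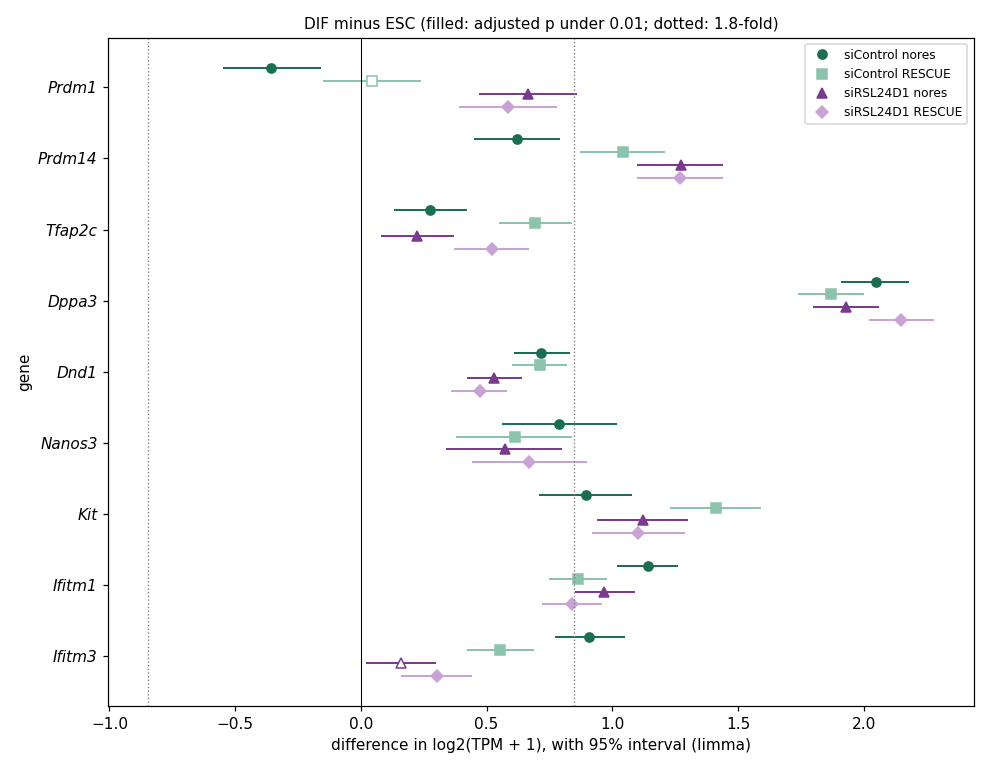
Difference between DIF and ESC on the log2(TPM + 1) scale (horizontal axis) for each member (vertical axis) in the 4 arms, with the 95% interval from limma. Filled symbols have an adjusted p under 0.01 and dotted lines mark 1.8-fold. Dppa3 lies near 2 in all arms, and Prdm1 runs from -0.36 to 0.67.

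Markers of other lineages moved with RA as well. The 8 RA response markers summed to between 5.85 and 6.24 TPM in ESC siControl nores and between 29.1 and 32.3 TPM in DIF siControl nores libraries, led by Meis2 and Meis1. The 8 extraembryonic endoderm markers went from 4.66 to 6.3 TPM up to 15.2 to 19.9 TPM, the 8 trophoblast markers, led by keratins, from 300 to 309 up to 365 to 401 TPM, and the 6 fibroblast feeder markers from 36.6 to 46 up to 92.3 to 103 TPM. The 6 mesoderm markers went down from 14.6 to 16.1 TPM to between 1.79 and 2.62 TPM, and the 6 neural ectoderm markers stood at 27.8 to 34.9 and 21.1 to 22.5 TPM. The pluripotency markers summed to between 1680 and 1790 TPM in these DIF libraries, with Pou5f1 down from a mean of 1110 to 519 TPM. Trophoblast cells also use Tfap2c, and visceral endoderm uses Prdm1. The study's methods grew CGR8 cells on gelatin and used feeder fibroblasts for other ESC lines, so the feeder list is read as fibroblast markers only. The part of these other lineage markers in the members' changes was not tested.

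Other genes of germ cell development were read from lists. Of 39 later germ cell and meiosis genes, 38 were listed and 33 tested, and in siControl nores cells 12 were called higher and 0 lower with RA, with a median difference of 0.57 beside -0.10 for all genes, of which 6.77% were called higher. Dazl, an RNA-binding protein of committed germ cells, went from a mean of 5.87 to 71.2 TPM (3.40 ± 0.10 on the log2 scale, adjusted p = 3.5e-16, limma). Sohlh2, an oogenesis factor, went from 5.98 to 44.7 TPM, Stra8, the RA-induced gatekeeper of meiosis, from 3.43 to 16.4 TPM, and Mov10l1, of the piRNA pathway, from 2.69 to 9.93 TPM. All 4 were called. In the other arms 18, 11 and 16 genes of the list were called higher (siControl RESCUE, siRSL24D1 nores, siRSL24D1 RESCUE), beside 10.7%, 7.93% and 9.34% of all genes, and 0, 1 and 0 lower.

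Of 23 pluripotency genes that primordial germ cells keep on, 2 were called higher and 6 lower with RA in siControl nores cells, with a median of -0.58, where 6.77% of all genes were called higher and 8.24% lower. In the other arms 3 were called higher and 3 lower in siControl RESCUE (median -0.31), 4 and 2 in siRSL24D1 nores (median -0.06) and 5 and 3 in siRSL24D1 RESCUE cells (median -0.03). Over all genes 10.7%, 7.93% and 9.34% were called higher in these arms, and 4.82%, 6.22% and 5.57% lower. Klf5 fell by 1.86 and Lin28a by 1.84 on the log2 scale, while the alkaline phosphatase gene Alpl, whose product stains germ cells, rose from a mean of 38.6 to 98.3 TPM (1.33). Of 25 tested signals and receptors of germ cell induction 3 were called higher and 3 lower. T (Brachyury), a mesoderm factor, fell from a mean of 12.8 to 0.471 TPM and the BMP target Id1 from 126 to 33.5 TPM, while the chemokine Cxcl12 rose from 2.18 to 10.9 TPM and Bmp7 from 1.81 to 6.24 TPM. Of 12 partner proteins of the members 4 were called lower and 0 higher in siControl nores cells, where 8.24% of all genes were called lower. The 4 were the corepressor Tle4 (-1.50), the histone methyltransferase Ehmt2 (57 to 27.9 TPM), the demethylase Kdm4b (-0.88) and Hdac1 (-0.87). In each of the other arms 1 partner was called lower, beside 4.82% to 6.22% of all genes. The list's median of -0.81 stood below that of all genes in siControl nores cells, and was -0.44 in siControl RESCUE cells, where 2 partners rose and 9 fell. Over all genes 36.8% rose and 22.4% fell in siControl RESCUE cells.

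The families of the members were read in siControl nores cells as well. Over all genes 6.77% were called higher and 8.24% called lower there, while 24.1% rose and 36.7% fell. Of 7 tested genes of the Ifitm list, 4 were called higher with RA, Ifitm1 and Ifitm3 among them. The others were Ifitm2, 11233 bases from Ifitm1, which rose from a mean of 521 to 951 TPM, and the interferon-induced Bst2, which rose from 122 to 224 TPM. Of 10 tested Prdm genes none was called, 1 rose (Prdm14) and 6 fell. Of 3 tested Tfap2 genes none was called: Tfap2c rose and Tfap2e fell, by 0.55. Of 13 tested relatives of Nanos3, Dnd1 and Kit, 2 were called higher, Kit itself and the related receptor Csf1r (0.0818 to 1.10 TPM), and 2 were called lower, the RNA-binding Syncrip (155 to 73.6 TPM) among them. Of 8 tested neighbours and relatives of Dppa3, 1 was called higher, Dppa3 itself, and 2 lower, Uhrf1 (139 to 63.1 TPM), whose product DPPA3 binds, and Dppa2 (-1.08).

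The comparison of siRSL24D1 with siControl asks what depletion of the ribosome factor did to the members. In ESC nores cells none of the 9 members was called, against 4.18% of all genes, while 7 of 9 passed the adjusted p alone, against 30.4% of all genes. Prdm1, Prdm14, Ifitm1 and Dppa3 fell, and Nanos3, Tfap2c and Ifitm3 rose. The members therefore moved in both directions, and their median difference was -0.22 beside -0.01 for all genes. Libraries of the 2 groups did not overlap for 51.1% of all genes, in either direction. Sums of several marker lists did not overlap between the same libraries. With the siRNA the RA response markers summed to 10.1 to 10.8 beside 5.85 to 6.24 TPM and the trophoblast markers, of a tissue that uses Tfap2c, to 340 to 361 beside 300 to 309 TPM. The pluripotency markers summed to 1880 to 1920 beside 2620 to 2670 TPM and the mesoderm markers to 8.15 to 11.7 beside 14.6 to 16.1 TPM, and those of fibroblast feeders to 26 to 28.6 beside 36.6 to 46 TPM. The extraembryonic endoderm sums overlapped (5.37 to 8.19 and 4.66 to 6.3 TPM). Their part in the members' changes was not tested.

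Prdm1 libraries went from 8.75, 8.67 and 7.85 TPM to 4.68, 4.72 and 4.07 TPM, without overlap, and the log2 difference was -0.78 ± 0.09 (adjusted p = 1.2e-06, limma). With 0.1 in place of 1 added to the TPM the difference was -0.89, past the fold threshold. Prdm14 went from 9.53, 7.9 and 8.56 to 5.03, 4.94 and 4.52 TPM, a difference of -0.73 ± 0.08 (adjusted p = 5e-07, limma). Mean TPM fell by 46.7% for Prdm1 and fell by 44.2% for Prdm14. Tfap2c went the other way, from 31.5, 29.6 and 28.5 to 46.4, 41.6 and 42.0 TPM, a rise of 0.52 ± 0.07 (adjusted p = 5.9e-06, limma).

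Dppa3 went from 80.1, 83.6 and 87.0 to 59.8, 60.6 and 63.2 TPM and Ifitm1 from 529, 594 and 585 to 385, 410 and 404 TPM. Both fell without overlap, by 0.44 and 0.51 on the log2 scale. Ifitm3, in contrast, went from 163, 181 and 180 to 214, 213 and 219 TPM, a rise of 0.30 ± 0.07 (adjusted p = 0.001, limma), which missed the threshold with median-of-ratios scaling (adjusted p = 0.016). Nanos3 went from 5.03, 3.65 and 4.84 to 6.5, 7.6 and 6.75 TPM, a rise of 0.54 ± 0.11 (adjusted p = 0.00053, limma) that missed the threshold when only the groups compared were fitted (adjusted p = 0.013). Kit differed by -0.22 (95% interval -0.40 to -0.03, adjusted p = 0.054) and Dnd1 by -0.03 (-0.14 to 0.08), both with overlapping libraries.

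In ESC RESCUE cells none of the members was called (1.36% of all genes) and 4 passed the adjusted p alone (13.7%). Prdm1 fell by 0.49, Ifitm1 by 0.32 and Dppa3 by 0.28, and Tfap2c rose by 0.28. All 4 missed the threshold when only the groups compared were fitted, with adjusted p-values from 0.019 to 0.03 (limma). Leaving out single libraries also moved Tfap2c (down to 0.25, adjusted p up to 0.033) and Dppa3 (up to -0.23, adjusted p up to 0.024) to the other side of the threshold, siControl replicate 3 and siRSL24D1 replicate 3 among them for both. Prdm14 was at 7.9, 6.18 and 6.5 TPM in siControl and at 5.52, 5.64 and 5.93 TPM in siRSL24D1 libraries, a difference of -0.23 that did not pass (adjusted p = 0.054, limma) but did with median-of-ratios scaling (adjusted p = 0.006). Rsl24d1 itself was at 103, 96.1 and 121 TPM in these siRSL24D1 RESCUE libraries and at 158, 150 and 147 TPM in the siControl RESCUE libraries, so it was still lower. In the test of whether the siRNA effect differed between RESCUE and nores ESCs, 4 members had an unadjusted p under 0.05 (limma). The share of all genes under that unadjusted p was not computed. At the adjusted p 0 members passed, against 2.09% of all genes. Prdm14 came nearest, with an interaction of 0.50 (95% interval 0.26 to 0.74, adjusted p = 0.014), and passed without ESC siControl RESCUE replicate 1 (0.59, adjusted p = 0.0035) and with median-of-ratios scaling.

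In DIF nores cells, where no depletion of Rsl24d1 was measured, none of the members was called (1.63% of all genes) and 5 passed the adjusted p alone (30.9%) in the libraries labelled siRSL24D1. Ifitm1 went from 1290, 1290 and 1190 to 840, 765 and 744 TPM, a difference of -0.68 ± 0.06 (adjusted p = 3.6e-08, limma). Dppa3 went from 346, 356 and 343 to 267, 207 and 237 TPM (-0.56 ± 0.06) and Ifitm3 from 339, 343 and 304 to 267, 227 and 230 TPM (-0.45 ± 0.07). These germ cell markers were lower without overlap. Libraries of the 2 groups did not overlap for 48.4% of all genes, in either direction. Tfap2c rose by 0.47, from 35.8, 36.9 and 36.3 to 44.9, 52 and 55.9 TPM. Fitted on the groups compared alone, Tfap2c, Ifitm3 and Dnd1 missed the threshold (adjusted p = 0.011, 0.012 and 0.05, limma). Prdm1, at 6.62, 6.1 and 6.33 and at 6.6, 7.78 and 8.86 TPM, differed by 0.24 and did not pass (adjusted p = 0.039), but passed without siRSL24D1 replicate 1 (0.34, adjusted p = 0.0049). Dnd1 fell by 0.22 (adjusted p = 0.0025) and missed the threshold without siControl replicate 1 or 3 or siRSL24D1 replicate 2 or 3, with an adjusted p of 0.01 to 0.019. The median of all genes stood at 0.13 in this comparison, and with median-of-ratios scaling Ifitm1 differed by -0.84 and Prdm14, at -0.07 otherwise, by -0.23 (adjusted p = 0.007). The pluripotency sums of these groups overlapped (1660 to 1810 and 1680 to 1790 TPM), as did those of blood and mast cells and of melanocytes. Sums of the other marker lists did not overlap. Mesoderm markers summed to 3.65 to 3.9 TPM in the libraries labelled siRSL24D1 beside 1.79 to 2.62 TPM. Neural ectoderm markers summed to 26.5 to 35.5 beside 21.1 to 22.5 TPM. RA response markers summed to 51.2 to 62.4 TPM in the libraries labelled siRSL24D1 beside 29.1 to 32.3 TPM, extraembryonic endoderm markers to 30.5 to 38.6 beside 15.2 to 19.9 TPM, trophoblast markers to 486 to 576 beside 365 to 401 TPM and fibroblast feeder markers to 164 to 227 beside 92.3 to 103 TPM. Their part in the members' changes was not tested.

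In DIF RESCUE cells none of the members was called (0.73% of all genes), and 2 passed the adjusted p alone (5.87%). Rsl24d1 was at 126, 114 and 114 TPM in the siControl libraries and at 134, 131 and 127 TPM in those labelled siRSL24D1. Its difference was 0.15 (adjusted p = 0.19, limma), so no depletion was measured here either. Ifitm1 went from 1180, 1110 and 1150 to 939, 884 and 891 TPM (-0.34 ± 0.06, adjusted p = 0.00043, limma) and Dnd1 from 23.2, 23.2 and 21.9 to 18.5, 19.5 and 17.6 TPM (-0.28 ± 0.05, adjusted p = 0.0012, limma). The groups did not overlap for either gene, and for 35.6% of all genes in either direction. Both changes missed the threshold with median-of-ratios scaling (adjusted p = 0.031 and 0.01), that of Dnd1 also when only the groups compared were fitted (adjusted p = 0.019). Dppa3 was at 315, 309 and 316 and at 315, 307 and 318 TPM, a difference of 0 with a 95% interval from -0.13 to 0.13. Nanos3 was at 8.26, 5.96 and 8.11 and at 9.55, 10.4 and 11.1 TPM, higher without overlap in the libraries labelled siRSL24D1 but short of the threshold (0.44, adjusted p = 0.012). It passed with 2 added to the TPM (adjusted p = 0.0097) and with median-of-ratios scaling (0.48, adjusted p = 0.0087). Nanos3 was also higher without overlap in the siRSL24D1 libraries of ESC RESCUE and DIF nores cells. The differences were 0.38 and 0.32 and did not pass (adjusted p = 0.016 and 0.022, limma). Libraries of these groups did not overlap for 33% and 48.4% of all genes, in either direction.

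**Figure D3:**
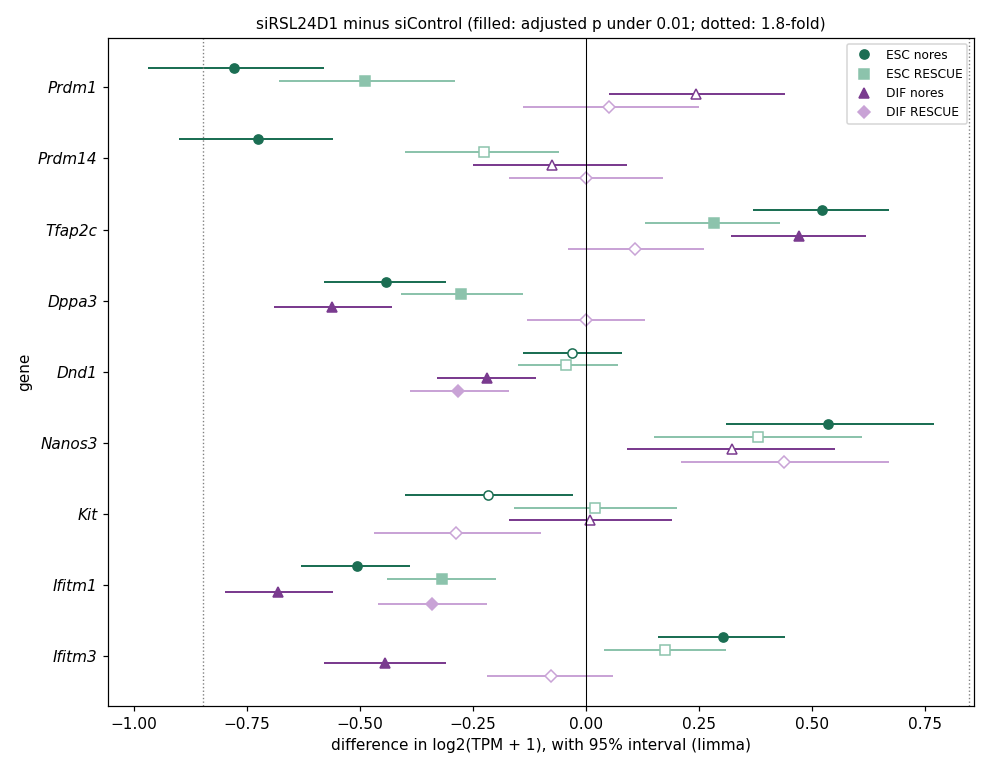
Difference between siRSL24D1 and siControl on the log2(TPM + 1) scale (horizontal axis) for each member (vertical axis) in ESC and DIF, nores and RESCUE, with the 95% interval from limma. Filled symbols have an adjusted p under 0.01 and dotted lines mark 1.8-fold. Ifitm3 is at 0.30 in ESC nores and at -0.45 in DIF nores cells, while Ifitm1 is below 0 in all 4.

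The difference of the siRNA effect between DIF and ESC was tested as an interaction. In nores cells 3 members passed the adjusted p, against 30.9% of all genes, and Prdm1 also passed the fold threshold, against 5.61%. Prdm1 had an interaction of 1.02 ± 0.13 (adjusted p = 5.3e-06, limma): it fell by 0.78 in ESCs and differed by 0.24 in DIF cells, where libraries overlapped. The interaction of Prdm14 was 0.65, from a fall of 0.73 to a difference of -0.07. The interaction of Ifitm3 was -0.75, from a rise of 0.30 to a fall of 0.45, and with median-of-ratios scaling it was -0.91, past the fold threshold. Dnd1, at -0.19 and not passing (adjusted p = 0.046), passed with that scaling (-0.34, adjusted p = 0.0026). Tfap2c had an interaction of -0.05 with a 95% interval from -0.26 to 0.16, and Ifitm1 one of -0.17 (-0.34 to -0.01). Neither passed, also not with median-of-ratios scaling, where they were -0.21 and -0.34 (adjusted p = 0.027 and 0.034). In RESCUE cells 1 member passed, against 9.95% of all genes: Prdm1, with 0.54 (adjusted p = 0.007). It missed the threshold without most single libraries, with values of 0.47 to 0.57 there and an adjusted p of up to 0.024 (without DIF siControl replicate 2). Since no depletion of Rsl24d1 was measured in DIF nores cells, the nores interactions set cells with a measured depletion against cells without one. The median of all genes was 0.14 in the nores interaction.

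The comparison of RESCUE with nores reads the transgene, doxycycline and the vector together. In siControl cells Rsl24d1 differed by 0.10 in ESC (adjusted p = 0.29, limma) and by 0.27 in DIF (adjusted p = 0.011, limma). Neither passed. In ESC siControl cells the RESCUE and nores libraries overlapped. In DIF siControl cells they did not, at 126, 114 and 114 TPM in RESCUE and 95.9, 101 and 96.7 TPM in nores libraries. The 95% interval of that DIF difference ran from 0.12 to 0.41. Rsl24d1 was thus higher in the DIF siControl RESCUE libraries but short of the threshold. In siRSL24D1 cells it rose by 1.55 in ESC and by 0.455 in DIF. The median of all genes was -0.12 in ESC siControl and -0.11 in ESC siRSL24D1 cells. In ESC siControl cells 0 members passed the adjusted p in limma (0.0122% of all genes), while 6 had an unadjusted p under 0.05. In DIF siControl cells 0 passed (10.2% of all genes), and 4 had an unadjusted p under 0.05. The share of all genes under that unadjusted p was not computed, so these counts cannot be set against it. RESCUE and nores libraries did not overlap for 41.8% of all genes in ESC siControl and 46.6% in DIF siControl cells, in either direction. In ESC siRSL24D1 cells 2 passed (15.3%): Tfap2c fell from 46.4, 41.6 and 42.0 to 28.9, 28.2 and 30.3 TPM (-0.55 ± 0.07, adjusted p = 1.7e-05, limma) and Ifitm1 rose from 385, 410 and 404 to 534, 520 and 463 TPM (0.34 ± 0.06, adjusted p = 0.00026, limma), the latter missing the threshold when only the groups compared were fitted (adjusted p = 0.015). With median-of-ratios scaling Prdm14 passed as well (0.31, adjusted p = 0.0012). Tfap2c was also lower in the siControl RESCUE libraries (25.3, 22.9 and 23.2 TPM) than in the siControl nores libraries (31.5, 29.6 and 28.5 TPM), by 0.31, which did not pass (adjusted p = 0.024). In DIF siRSL24D1 cells 1 passed (5.17%): Dppa3 rose from 267, 207 and 237 to 315, 307 and 318 TPM (0.41 ± 0.06, adjusted p = 0.00035, limma), and missed the threshold when only the groups compared were fitted (adjusted p = 0.083). Without DIF siRSL24D1 nores replicate 1, Tfap2c also passed there (-0.34, adjusted p = 0.0021), as did Ifitm1 (0.26, adjusted p = 0.0051). The siRNA effect in DIF differed between RESCUE and nores for 2 members, against 8.95% of all genes. Dppa3 had an interaction of 0.56 ± 0.09 (adjusted p = 0.00088, limma), from -0.56 in nores to 0 in RESCUE cells, and Ifitm1 one of 0.34 (adjusted p = 0.0068). The latter missed the threshold without most single libraries, with values of 0.30 to 0.36 there and an adjusted p of up to 0.023 (without DIF siRSL24D1 nores replicate 2 or 3). Ifitm3 (0.37, adjusted p = 0.01) and Tfap2c (-0.36, adjusted p = 0.014) did not pass, but did without DIF siRSL24D1 nores replicate 1 (0.45 and -0.45). All genes had a median of -0.17 in that interaction.

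The other germ cell genes were read in the siRNA comparisons too. In ESC nores cells 14 of 23 pluripotency genes fell and 1 rose, with 3 called, Tcl1 (-1.25), Esrrb (-1.09) and Zfp42 (-0.96), and a list median of -0.26. Over all genes 14.3% rose and 16.1% fell in this comparison, and 3.4% were called higher and 0.772% called lower. Of 33 later germ cell and meiosis genes 7 rose and 7 fell. The meiotic cohesin Rec8 went from a mean of 9.65 to 20.8 TPM, Meioc from 12.2 to 23.6 TPM and Hormad1 from 10.9 to 21.2 TPM, while Stra8 went from 3.43 to 1.42 TPM, all 4 called. Of 25 signals and receptors 7 rose and 4 fell: the germ cell inducers Wnt3 (3.02 to 9.99 TPM) and Bmp7 (1.81 to 5.82 TPM) were called higher and Bmp4, their best known companion, called lower (22.7 to 11.2 TPM). Of 12 partners 1 rose and 4 fell, with none called. In the smaller families Nanos1, a relative of Nanos3, was called higher (2.20 to 5.89 TPM), and no other gene of the Ifitm, Prdm, Tfap2, Nanos, Dnd1 and Kit or Dppa3 lists was called.

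In the DIF nores libraries labelled siRSL24D1, 24.9% of all genes were higher and 6.04% lower at the adjusted p. Of all genes 1.45% were called higher and 0.182% called lower. There 11 of 33 later germ cell genes were lower and 2 higher, with a median of -0.13 beside 0.13 for all genes and none called. Dazl was at a mean of 43.3 beside 71.2 TPM (-0.71, adjusted p = 2e-05, limma) and the testis antigen Tex101 at 2.48 beside 4.93 TPM. Of 25 signals and receptors 12 were higher and none lower, with Cxcl12 called (28.3 beside 10.9 TPM). Of 12 partners 8 were higher, Cnot1 of the deadenylase complex by 0.60. Of the pluripotency genes 6 were higher and 3 lower, with none called and a median of 0.07. Of the Ifitm list 4 were lower, namely Ifitm1, Ifitm3, Bst2 (-0.68) and Ifitm2 (-0.46).

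**Figure D4:**
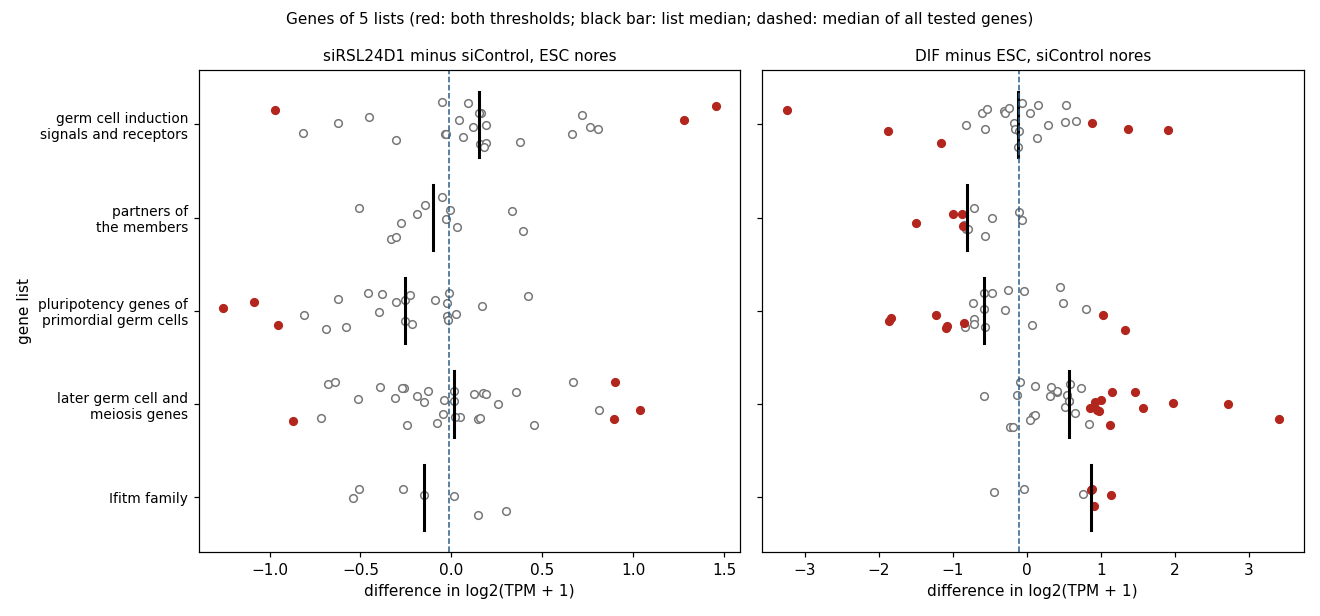
Difference on the log2(TPM + 1) scale (horizontal axes) of the tested genes of 5 lists (vertical axis) for siRSL24D1 against siControl in ESC nores cells (left) and DIF against ESC in siControl nores cells (right). Red points passed both thresholds, black bars are list medians and the dashed line the median of all tested genes (-0.01 left, -0.10 right). The later germ cell genes have 12 red points on the right, all above 0, and the partners have 4, all below 0.

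Over the 24 libraries Dppa3, Prdm14, Dnd1, Kit and Ifitm1 had the most similar profiles, with Pearson's r on the log2 scale between 0.86 and 0.95 for every pair. Of the libraries, 12 were DIF and 12 ESC, and all pairs share this split, which the values therefore include. Tfap2c and Nanos3 were most like each other (0.82), and Prdm1 had r under 0.70 with each of the others. Among all genes tested, the profile most like that of Dppa3 was that of Cyct, which encodes testis cytochrome c (0.994), followed by Gstm5 (0.993) and Srrm4os (0.992). Prdm14 was most like Eif2s2, Slc39a11 and Nanog (0.985, 0.985 and 0.984). Kit was most like Mlycd, Lima1 and Hk1 (0.989, 0.989 and 0.987), Ifitm1 like Cenpv, the meiotic recombination gene Mnd1 and Hesx1 (0.986, 0.982 and 0.981), and Dnd1 like Praf2, 1700029J07Rik and Cox18 (0.982, 0.979 and 0.979). Ifitm3 was most like ribosomal protein genes, Rps19, Rps18 and Rpl26 (0.973, 0.973 and 0.968), apart from Ifitm1. Tfap2c was most like Pcdhgc3, Zswim8 and Gpc4 (0.962, 0.957 and 0.954), Nanos3 like Gm8332, Eif4a3l1 and Gm21761 (0.960, 0.948 and 0.948), and Prdm1 like Ttc39b, Bcat1 and Xrcc5 (0.954, 0.946 and 0.945).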

How the data were processed

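RNA-seq was analysed in 24 libraries, grouped by their GEO labels into 8 groups of 3. The deposited values are log2(TPM + 1) per gene symbol, made by the authors, and TPM recovered from them sums to the same total in each library. TPM carries no read totals, so the depth is not known and no count test was run. The study's methods name a stranded total-RNA kit, STAR and Salmon with a mouse annotation, whereas the labels name a poly-A kit. The submitters' processing notes list STAR 2.7.8a and Salmon 1.4.0 and a human build, which was not used here.

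Genes with a mean of at least 0.5 on the log2(TPM + 1) scale were fitted with 8 group means in limma 3.58.1 (R 4.3.3, eBayes with trend, 16 residual degrees of freedom), giving 12 pairwise comparisons and 4 interactions. P-values were adjusted by the Benjamini-Hochberg method over all genes of a comparison. Genes passing an adjusted p of 0.01 were said to rise or fall, and those also past 1.8-fold were called. An exact permutation test of 3 against 3 libraries cannot go below p = 0.1 and was not used. The fitting was tested on simulated data. The table held 0 columns of samples outside the series.

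Members and lists were chosen with earlier results of these data known. Of each list at most 4 genes were named, those with the largest change among the called genes or, where fewer were called, among the tested, and for each member the 3 genes of highest Pearson correlation. One gene of the list of Nanos3, Dnd1 and Kit relatives is not named here. Pou5f1, Kitl, Nanog and the leading RA markers were named beside them. Positions are from GENCODE on GRCm38. Copies were searched with blastn 2.17.0, and promoters came from RefSeq on GRCm38.p6. The alternatives were another added value (0.1 or 2), no filter or one at 1.5, median-of-ratios scaling, a replicate block, no intensity trend, only the groups compared, no fold threshold, and each library left out. Replicate numbers did not pair the libraries: deviations of same-numbered libraries had a mean correlation of -0.0173, with 4 of 84 pairs over 0.1.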

Additional observations from a re-analysis of the deposited data

Results flagged for a closer look

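In 6 cases the siRNA effect on a member differed between conditions by an interaction test in limma. Between DIF and ESC in nores cells it differed for Prdm1 (1.02), Prdm14 (0.65) and Ifitm3 (-0.75), against 30.9% of all genes. In RESCUE cells it differed for Prdm1 (0.54), against 9.95% of all genes. In nores cells Prdm1 and Prdm14 fell with the siRNA in ESCs and did not pass the test in DIF, whereas Ifitm3 rose in ESCs and fell in DIF. Between RESCUE and nores in DIF cells it differed for Dppa3 (0.56) and Ifitm1 (0.34), against 8.95% of all genes. The falls of Dppa3 and Ifitm1 in nores cells were larger than their differences in RESCUE cells. The interactions of Prdm1 in RESCUE cells and of Ifitm1 missed the threshold without most single libraries. In DIF nores cells the libraries labelled siRSL24D1 did not show less Rsl24d1 than the siControl libraries. The groups of 3 were too small for a test of outlying libraries.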

How the results depend on the processing

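No member changed sign in a called comparison under any alternative. Of the member values recomputed, 2149 kept their side of the threshold, 66 lost it and 17 gained it. With no fold threshold the members passing were 7, 4, 5 and 2 for the siRNA (ESC nores, ESC RESCUE, DIF nores, DIF RESCUE), 9, 8, 8 and 9 for DIF against ESC (siControl nores, siControl RESCUE, siRSL24D1 nores, siRSL24D1 RESCUE), 2 and 1 for RESCUE against nores in ESC and DIF siRSL24D1 cells, 3 and 1 for the interaction of siRNA and day in nores and RESCUE cells, and 2 for that of siRNA and rescue in DIF. With 0.1 added to the TPM 1 member, Prdm1, was called for the siRNA in ESC nores cells, and with median-of-ratios scaling 2, Prdm1 and Ifitm3, were called in the interaction of siRNA and day in nores cells. With the replicate block, Tfap2c in DIF against ESC of siRSL24D1 nores cells had an adjusted p of 0.011 in place of 0.0088, Prdm1 in the interaction of siRNA and day in RESCUE cells 0.012 in place of 0.007, and Ifitm1 in the interaction of siRNA and rescue in DIF 0.011 in place of 0.0068. The block changed no other member's side of the threshold. Of 24 libraries 1 was closest to one of its own number. The cause of these changes was not tested.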
